A study of Mus musculus with 18 samples.

Results

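The transcripts of 40 genes of autophagy, mitophagy and the lysosome were followed in tibialis anterior (TA) muscle, a hindlimb muscle of mostly fast fibres, from mice with 5 models of cancer cachexia, the wasting of muscle that accompanies a growing tumour. The genes were taken by symbol from a list of the pathway, and all 40 were found among 29433 genes with a count and passed the filter on low counts that left 16089 for testing. Muscle was collected once the animals had reached endpoint, and RNA of 18 libraries was sequenced, with 2 libraries labelled as biological replicates in each of 9 groups. LLC tumours (a mouse lung carcinoma line) were grown in muscle of C57BL/6 mice and compared with PBS controls of that strain, and whether the sampled muscle was the injected one is not stated. KPC cells (50000) and KPCML1 cells (1000) were implanted orthotopically in C57BL/6 mice, and both were compared with the same 2 controls given Matrigel only. The cell numbers are those of the sample titles, and the name of 1 comparison table deposited by the authors gives another number for the KPCML1 group. C26 tumours (a mouse colon carcinoma line) were grown under the skin of CD2F1 mice and compared with PBS controls of that strain. KPP is a genetically induced tumour on a C57BL/6 background, started with tamoxifen and compared with mice of the KPP model that had no tumour. Strain, line, cell number and site go together with the model and cannot be told apart from it, and no source used here gives the age or sex of the animals, the KPP alleles, or whether KPP controls received tamoxifen.

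Autophagy encloses part of the cytoplasm in a double membrane and delivers it to the lysosome. The Ulk1 kinase complex starts the process, the class III phosphatidylinositol 3-kinase complex marks the membrane with the lipid PI3P, Atg2a and Atg9a supply lipid, and a conjugation system attaches proteins of the LC3 and GABARAP family to the growing membrane. Receptors such as Sqstm1 bind cargo and LC3 together, Bnip3 and Bnip3l tether mitochondria to the membrane, and lysosomal cathepsins degrade what arrives. In skeletal muscle this route works beside the proteasome in protein breakdown during fasting, denervation and wasting, and FoxO factors are known to drive several of its genes. A transcript level measures neither the conjugated LC3 protein nor the flux through the pathway.

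Libraries held 22546541 to 36673780 assigned fragments, and expression is given as CPM, counts scaled to the library size after TMM normalisation. Every one of the 40 genes had at least 31 counts in each library. Summed markers of muscle fibres reached 114010 to 151040 CPM in controls and 63086 to 168780 CPM in tumour groups, with the lowest value in C26 tumour replicate 2. Summed markers of neutrophils (10 genes) were 1.16 to 2.76 CPM in controls and 6.8 to 74.1 CPM in tumour libraries, with Ly6g and Camp too low to test. Summed markers of macrophages (15 genes) were 59.8 to 159 CPM and 71.9 to 195 CPM, those of red cells (9 genes with counts) 294 to 890 and 147 to 6834 CPM, and those of epithelial tumour cells (5 genes) 0.887 to 4.78 and 1.01 to 4.09 CPM. Mitochondrially encoded genes took 14.6 to 22.4% of the counts in controls and 5.94 to 16.9% in tumour libraries. Markers of fibro-adipogenic cells (8 genes, 550 to 1257 CPM in controls and 281 to 919 CPM in tumour libraries) were called lower for 4 genes in LLC, 2 in KPCML1, 5 in KPC, 3 in C26 and 6 in KPP. All 5 endothelial markers were lower in KPP, and of 6 adipocyte markers 4 were lower and 1 higher in C26 and in KPP, while 2, 3 and 3 were higher in LLC, KPCML1 and KPC. Of all genes 4.15 to 17.4% were called higher and 4.38 to 19.3% lower in the 5 models. The part of the marker shifts in the pathway's values was not tested. In such bulk tissue, fewer cells of a type and less RNA per cell cannot be told apart.

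The median of the 40 genes was shifted upward in each of the 5 models, and the shift was uneven between the stages of the pathway. These genes were chosen with earlier results of these data known, so their shift does not stand for the whole pathway. A wider list of 96 pathway genes, given below, was called in KPCML1 about as often as all genes. Transcripts of Map1lc3b and Map1lc3a (LC3 proteins), Sqstm1 (the receptor p62) and Ctsl (the protease cathepsin L) rose in all 5 comparisons. Bnip3, Gabarapl1, Ctsd, Atg7, Uvrag and Pik3c3 rose in 4. Most genes of the conjugation machinery and the initiation subunit Ulk2 did not rise in any model. The map of fold changes shows these columns side by side.

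**Figure D1:**
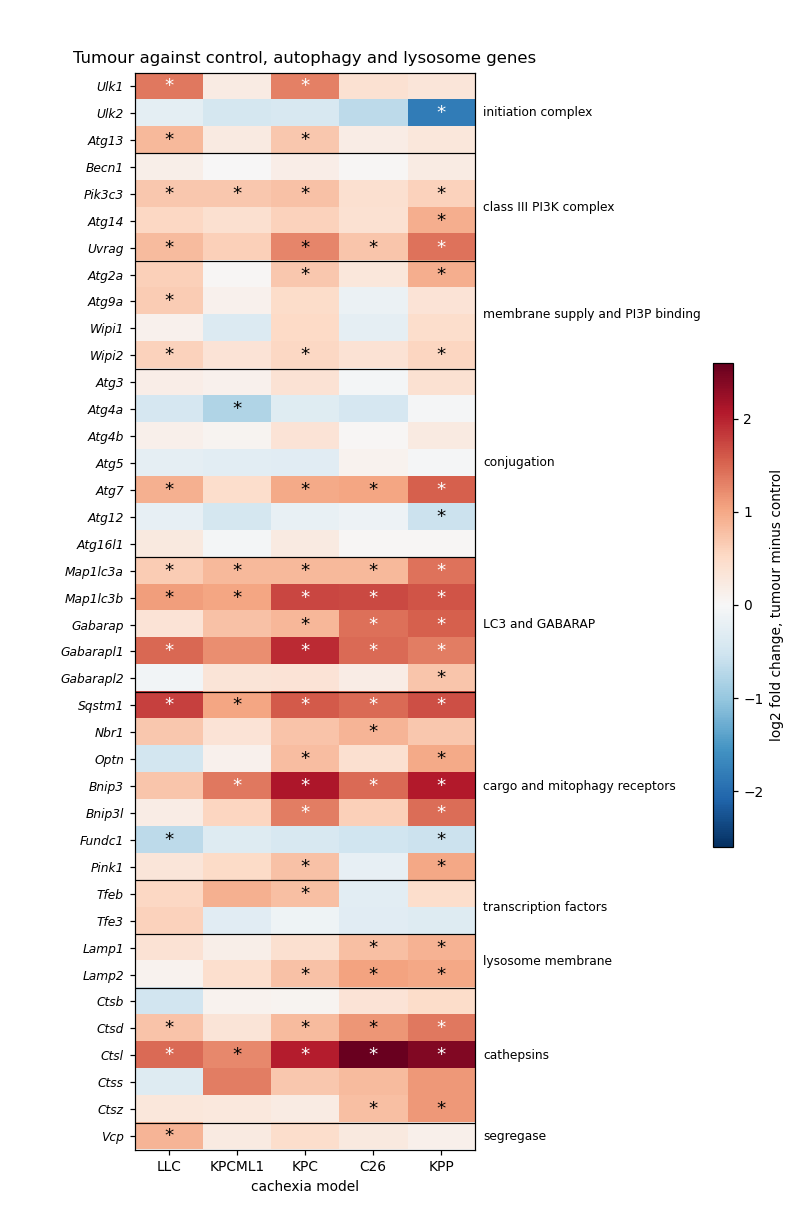
Log2 fold change of tumour over control (colour) for the 40 genes (rows, grouped by role) in the 5 models (columns), and stars mark an adjusted p under 0.05. Map1lc3a, Map1lc3b, Sqstm1 and Ctsl are starred in every column, and Ulk2, Atg4a, Atg12 and Fundc1 are the blue rows with a star.

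A gene was called when its adjusted p in edgeR's quasi-likelihood test (Benjamini-Hochberg over all 16089 genes) was under 0.05. In LLC muscle 14 of the 40 genes were called higher and 1 lower, where 7.39% and 6.24% of all tested genes were. KPCML1 gave 6 higher and 1 lower (4.15% and 4.38% of all genes), and KPC gave 20 higher and 0 lower (15.3% and 13.7%). C26 gave 14 higher and 0 lower (11.5% and 9.80%), and KPP 21 higher and 3 lower (17.4% and 19.3%). The 0 lower calls were 1 gene in KPC and 3 in C26 at an unadjusted p under 0.05, and 0 and 2 genes by DESeq2. The share of these genes called higher was above the share of all genes in each model, and the share called lower was below it. In LLC and KPCML1 the share called lower rests on 1 gene each, so little can be read from it there. With a replicate block (replicate number as a term of the model) 4 genes were called lower in LLC, and 3 in the fit of that experiment alone. The median log2 fold change over the 40 genes was 0.45 in LLC, 0.30 in KPCML1, 0.70 in KPC, 0.38 in C26 and 0.71 in KPP, while the median of all tested genes lay between -0.04 and 0.04. Of the 200 pairs of a gene and a model, 75 were called higher and 5 lower, and 9 genes were called in none (Becn1, Wipi1, Atg3, Atg4b, Atg5, Atg16l1, Tfe3, Ctsb and Ctss). KPC and KPCML1 share their controls, so their values are not independent of each other.

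With 2 libraries in a group, single libraries carried weight in these counts. Without either LLC control, or without LLC tumour replicate 2, 2 genes were called higher in LLC (Map1lc3b and Sqstm1 in each case), and without tumour replicate 1 there were 9. The 6 of KPCML1 became 2 and 0 without Matrigel control replicate 1 and 2, and 1 without KPCML1 tumour replicate 2. The 20 of KPC became 11 and 7 without Matrigel control replicate 1 and 2, and 13 without KPC tumour replicate 2. The 14 of C26 became 8 and 6 without C26 control replicate 1 and 2, and 7 without C26 tumour replicate 2. The 21 of KPP stayed at 16 to 21. The 1 lower call of LLC was lost without any 1 of its libraries, that of KPCML1 without either Matrigel control or tumour replicate 2, and the 3 of KPP became 1 without KPP control replicate 2 or either KPP tumour library. In C26 there was 1 lower call without C26 control replicate 1. Calls that held without each single library numbered 2 of 15 in LLC, 0 of 7 in KPCML1, 7 of 20 in KPC (Bnip3, Bnip3l, Ctsl, Lamp2, Map1lc3b, Sqstm1 and Uvrag), 6 of 14 in C26 (Bnip3, Ctsl, Gabarap, Lamp2, Map1lc3b and Sqstm1) and 16 of 24 in KPP (Ulk2, Atg14, Uvrag, Atg7, Map1lc3a, Map1lc3b, Gabarap, Sqstm1, Bnip3, Bnip3l, Pink1, Lamp1, Lamp2, Ctsd, Ctsl and Ctsz).

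Ulk1, the kinase that initiates autophagy, rose in LLC and KPC muscle. It measured 44.99 and 55.2 CPM in the LLC controls and 105 and 152 CPM in the tumour libraries, a log2 fold change of 1.36 ± 0.35 (± SE of the fit, n = 2 libraries per group, as throughout; adjusted p = 0.019). Matrigel controls measured 90.6 and 57.7 CPM and KPC muscle 124 and 244 CPM (1.31 ± 0.34, adjusted p = 0.012), so the groups did not overlap but the 2 KPC libraries were far apart. The KPC call was lost without KPC tumour replicate 2, the higher one (adjusted p = 0.21), and without Matrigel control replicate 2 (0.14), and the LLC call without either control or tumour replicate 2 (up to 0.18). In KPCML1, C26 and KPP tumour and control libraries overlapped, with differences of 0.21 ± 0.34, 0.40 ± 0.34 and 0.31 ± 0.34. Atg13, the scaffold that activates Ulk1, was called in the same pair of models, at 0.85 ± 0.23 in LLC and 0.70 ± 0.23 in KPC, where KPC tumour replicate 2 (74.9 CPM) again stood above replicate 1 (44.1 CPM). Without that library the adjusted p of Atg13 in KPC was 0.55, it was also lost without either Matrigel control, and the LLC call was lost without any 1 of its 4 libraries.

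Ulk2, the paralogue of Ulk1, went the other way. The gene lies on chromosome 11 (61775649 to 61855073, minus strand, in GENCODE M21 on mm10). In KPP muscle it fell from 119 and 110.2 CPM to 44.05 and 20.9 CPM (-1.82 ± 0.29, adjusted p = 0.00042), the largest decrease of the 40 genes in any model, and the call held without each of the 4 KPP libraries. In the other 4 models its estimates were also negative, from -0.69 in C26 to -0.25 in LLC, and none was called. Averaged over the 5 models the log2 fold change was 0.72 ± 0.17 for Ulk1 and -0.73 ± 0.13 for Ulk2 (adjusted p = 0.0028 and 0.00049). Length-corrected levels in control muscle were of the same order, with a median of 12.99 TPM (Salmon's length-corrected abundance) for Ulk1 and 23.6 TPM for Ulk2.

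Of the class III PI3K complex, the catalytic subunit and the Uvrag branch moved and the core subunit Becn1 did not pass the test in any model. Becn1 (Beclin 1) stayed at 59.6 to 74.2 CPM in controls and 59.8 to 88.0 CPM in tumour libraries, with estimates from 0.00 to 0.21. Uvrag, which binds Becn1 in the complex that acts on maturing autophagosomes and endosomes, measured 15.4 and 15.2 CPM in KPP controls and 36.2 and 44.8 CPM with tumour (1.40 ± 0.23, adjusted p = 0.00053). It also rose in KPC, from 14.2 and 13.4 to 29.5 and 36.9 CPM (1.26 ± 0.23), and in LLC and C26 (0.82 ± 0.23 and 0.72 ± 0.23). The C26 tumour libraries differed, at 13.6 and 24.1 CPM, and without the second of them the adjusted p was 0.54. Pik3c3, the lipid kinase Vps34 itself, rose by a similar amount in LLC, KPCML1, KPC and KPP (0.70, 0.69, 0.76 and 0.59, SE 0.20 each). Its tumour libraries in these models (19.6 to 26.9 CPM) all lay above its controls (13.3 to 15.4 CPM), and in C26 the difference was 0.41 ± 0.20 (adjusted p = 0.16). Atg14, the subunit that directs the complex to the forming autophagosome, was called in KPP only (10.5 and 8.64 to 18.1 and 18.96 CPM, 0.95 ± 0.22), with positive estimates in the other 4 (0.40 to 0.59). A joint test of differences among the models did not call Atg14 (adjusted p = 0.54). Of these calls, those of Uvrag in KPC and KPP and of Atg14 in KPP held without each single library.

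Among the genes of membrane supply, Wipi2, a PI3P-binding protein that recruits the conjugation machinery, rose in LLC, KPC and KPP. It measured 32.3 and 34.98 CPM in LLC controls and 50.4 and 52.1 CPM with tumour (0.61 ± 0.15), 36.1 and 36.7 against 46.7 and 58.97 CPM in the Matrigel and KPC groups (0.54 ± 0.15), and 32.4 and 38.2 against 51.7 and 51.7 CPM in KPP (0.55 ± 0.15). Its tumour libraries lay above its controls in each of the 5 models, and KPCML1 and C26 were not called (0.36 ± 0.15 and 0.37 ± 0.15). Its paralogue Wipi1 was called against no control, with estimates from -0.35 to 0.53. Atg2a, a lipid transfer protein, was called in KPC and KPP (0.70 ± 0.25 and 0.94 ± 0.26), and without KPC tumour replicate 2 (47.0 CPM, against 28.8 in replicate 1) its adjusted p in KPC was 0.56. Atg9a, the lipid scramblase of Golgi-derived vesicles, was called in LLC only (80.9 and 78.9 to 104 and 149.5 CPM, 0.67 ± 0.19), and its difference among the models was not called (adjusted p = 0.14). None of the calls in this group held without each single library, and the closest was Wipi2 in KPP, lost without KPP control replicate 1 (adjusted p = 0.12).

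Of the roles with 3 or more genes, the conjugation machinery had the smallest median in each model. Only Atg7 of its 7 genes was called higher, in LLC, KPC, C26 and KPP, where 7.39, 15.3, 11.5 and 17.4% of all genes were. In a list this short 1 call is near those shares, and it does not set this stage apart. The initiation complex had 0 higher calls in KPCML1, C26 and KPP. Atg7, the E1-like enzyme that activates LC3 and Atg12, measured 5.01 and 5.67 CPM in LLC controls and 8.59 and 11.8 with tumour (0.93 ± 0.22, adjusted p = 0.013). Against 6.84 and 5.70 CPM in the Matrigel controls it reached 13.5 and 11.2 in KPC (0.98 ± 0.22) and 7.48 and 9.86 in KPCML1 (0.46 ± 0.22, not called). It rose from 7.49 and 6.66 to 13.4 and 15.5 CPM in C26 (1.03 ± 0.22) and from 7.04 and 5.79 to 19.6 and 17.99 CPM in KPP (1.55 ± 0.22, adjusted p = 0.00021). Tumour libraries lay above controls in every model, the KPP call held without each single library, and Atg7 had the lowest control level of the 7 genes, a median of 2.35 TPM. The E2-like Atg3, the scaffold genes Atg5 and Atg16l1 and the protease Atg4b passed no test, with estimates from -0.29 (Atg5 in KPC) to 0.39 (Atg3 in KPP). Atg4a, another LC3-processing protease, was lower in KPCML1 (34.7 and 36.99 to 22.1 and 19.9 CPM, -0.77 ± 0.17, adjusted p = 0.014), a call lost without either Matrigel control or KPCML1 tumour replicate 2. Atg12, the ubiquitin-like protein joined to Atg5, was lower in KPP (21.4 and 27.7 to 16.9 and 16.2 CPM, -0.57 ± 0.17), and this call was lost without KPP control replicate 2 (adjusted p = 0.21) or either tumour library. The median log2 fold change of the 7 genes lay between -0.04 and 0.24 over the models, against 0.67 to 1.43 for the LC3 and GABARAP family.

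**Figure D2:**
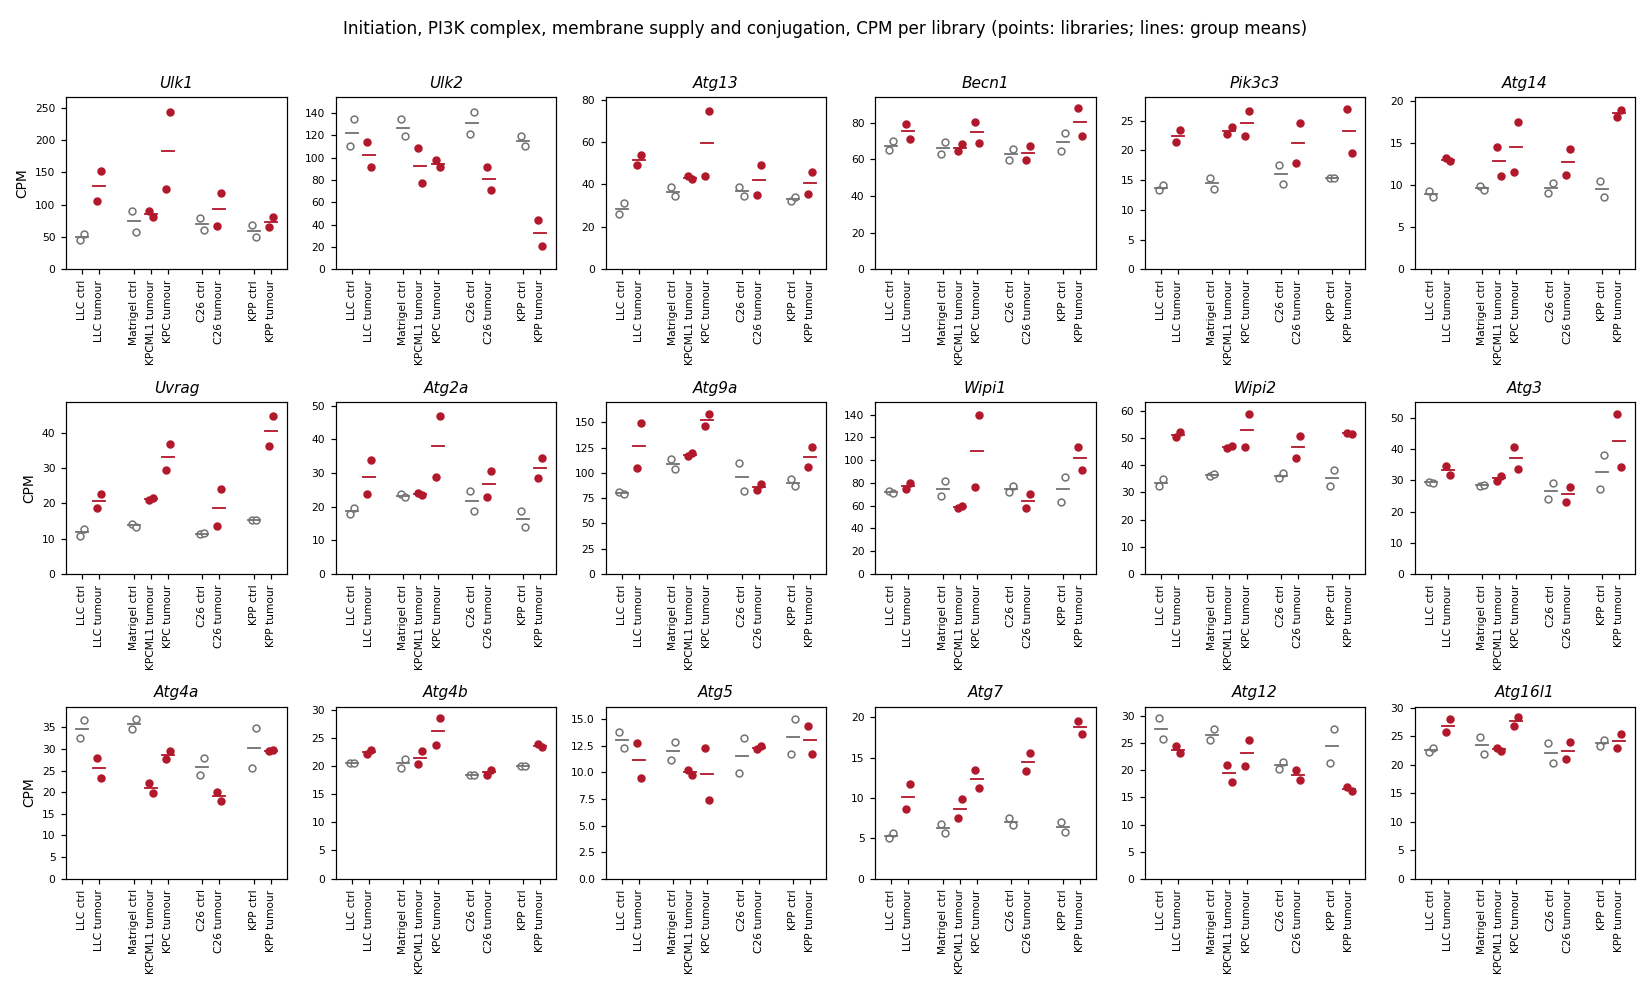
CPM in each library (points, open for controls and filled for tumour groups, lines for means of 2 libraries) of the genes of initiation, the PI3K complex, membrane supply and conjugation. Uvrag and Atg7 stand above their controls in every model, Ulk2 is lowest in KPP tumour muscle (20.9 and 44.0 CPM), and the second KPC library is high in Ulk1, Atg13, Atg2a and Wipi1.

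The LC3 and GABARAP family, the proteins that coat the autophagosome membrane, had the largest median increase of the roles with 5 or more genes in each model. Map1lc3b (chromosome 8, 121590361 to 121598760, plus strand, mm10) measured 157 and 153 CPM in LLC controls and 312 and 346 CPM with tumour (1.09 ± 0.17, adjusted p = 0.0012). Against 163 and 159 CPM in Matrigel controls it reached 303 and 355 CPM in KPCML1 (1.03 ± 0.17) and 481 and 586 CPM in KPC (1.73 ± 0.17). It rose from 157 and 173 to 503 and 585 CPM in C26 (1.72 ± 0.17) and from 175 and 218 to 609 and 611 CPM in KPP (1.64 ± 0.17, adjusted p = 4.8e-05). The 8 control libraries spanned 153 to 218 CPM and the 10 tumour libraries 303 to 611 CPM, without overlap. The call held without each single library in LLC, KPC, C26 and KPP, and in KPCML1 it was lost without Matrigel control replicate 2 (adjusted p = 0.056).

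Map1lc3a, the family member with the highest length-corrected level of the whole gene in control muscle (median 234 TPM, against 105 for Map1lc3b, 99.5 for Gabarap, 55.7 for Gabarapl2 and 30.3 for Gabarapl1), rose in all 5 models, with smaller estimates than Map1lc3b in each. They were 0.67 ± 0.21 in LLC, 0.84 ± 0.21 in KPCML1, 0.85 ± 0.21 in KPC, 0.84 ± 0.21 in C26 and 1.41 ± 0.21 in KPP, where it went from 169.6 and 181 to 541 and 389 CPM. A processed transcript without coding sequence, Map1lc3a-203, was assigned 43.3 to 55.9% of the gene's TPM in controls, so the coding transcript stood well below the level of the gene and its order against Map1lc3b is uncertain. In LLC, KPCML1, KPC and C26 this call did not hold without each single library (highest adjusted p 0.29, 0.21, 0.086 and 0.13). Gabarapl1, a family member closely related to Gabarap, started from 31.5 and 35.4 CPM in LLC controls and reached 89.2 and 100.3 CPM (1.50 ± 0.41). It rose from 49.3 and 39.9 to 106 and 239 CPM in KPC (1.95 ± 0.42), from 40.5 and 49.1 to 74.2 and 174 CPM in C26 (1.47 ± 0.41) and from 41.6 and 82.9 to 139 and 175 CPM in KPP (1.34 ± 0.41). KPCML1 muscle measured 104 and 102 CPM (1.21 ± 0.41, adjusted p = 0.082). In each model the tumour libraries exceeded the controls, and replicates of the KPC and C26 tumour groups differed by more than 2-fold. Without the higher library the adjusted p was 0.070 in KPC and 0.33 in C26, and no Gabarapl1 call held without each single library.

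Gabarap rose in KPC, C26 and KPP, and the C26 and KPP calls held without each single library. It went from 102 and 135 to 389.9 and 303 CPM in KPP (1.54 ± 0.25) and from 94.8 and 109.9 to 229 and 323 CPM in C26 (1.43 ± 0.25). KPC libraries measured 225 and 134 CPM against 99.7 and 98.7 (0.85 ± 0.25; adjusted p up to 0.17 without either Matrigel control or KPC tumour replicate 1), and LLC gave 0.36 ± 0.25 (adjusted p = 0.38). KPCML1 libraries, at 147 and 190.5 CPM, also exceeded both controls without passing the test (0.77 ± 0.25, adjusted p = 0.073). Gabarapl2, known as GATE-16, was called in KPP only (61.97 and 87.3 to 134 and 112 CPM, 0.72 ± 0.18), and without KPP control replicate 1 its adjusted p was 0.092. In LLC its estimate was -0.06 ± 0.18, and its difference among the models was not called (adjusted p = 0.21).

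Map1lc3b is annotated with several transcripts, and 1 of them took a larger share of the signal in C26 and KPP tumour libraries. Transcript Map1lc3b-203 held 26.8 and 31.0% of the gene's TPM in C26 controls and 42.2 and 50.6% in C26 tumour muscle, and 24.1 and 34.2% against 53.6 and 55.1% in KPP. In the other tumour libraries it held 26.4 to 39.6%, beside 26.3 to 27.6% in their controls. As a share of estimated counts the same transcript ranged from 8.02 to 12.5% in C26 and KPP controls and from 16.7 to 25.6% in their tumour libraries. Map1lc3b-201 kept the largest share of the counts in every library (63.7 to 84.1%). These shares are Salmon's division of fragments among overlapping transcripts, and they were not tested. Lamp2-202 held 56.3 to 67.5% of Lamp2 TPM over all libraries, and in LLC it went from 57.5 and 61.1% to 65.7 and 67.5%. Ulk1-201 went from 85.5 and 84.7% of TPM in KPP controls to 68.6 and 52.8% with tumour, but held at least 90.2% of counts. Tfeb-202 held 58.6 and 63.1% of TPM in Matrigel controls, 47.5 and 35.6% in KPCML1, and 37.9 and 38.9% in KPC. These shifts were not tested either.

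Sqstm1 (chromosome 11, 50199366 to 50210827, minus strand, mm10), the receptor p62 that links ubiquitin-tagged cargo to LC3, rose in every model. It measured 338 and 377 CPM in LLC controls and 1066 and 1393 CPM with tumour (1.78 ± 0.26, adjusted p = 0.00090). Matrigel controls had 571 and 459 CPM, KPCML1 muscle 901 and 1181 CPM (1.02 ± 0.26) and KPC muscle 1346 and 1748 CPM (1.59 ± 0.26). It rose from 447 and 402 to 1015 and 1329.6 CPM in C26 (1.47 ± 0.26) and from 464 and 643 to 2129.7 and 1425 CPM in KPP (1.68 ± 0.26). The highest control of all (643 CPM) lay below the lowest tumour library (901 CPM). In KPCML1 the call was lost without either Matrigel control or tumour replicate 2 (adjusted p up to 0.26), and in the other 4 models it held without each single library. Nbr1, a receptor of similar domain structure, was called in C26 only (64.5 and 54.2 to 96.1 and 123 CPM, 0.89 ± 0.29, adjusted p = 0.045), and that call was lost without any 1 of its 4 libraries. Its estimates in the other models were 0.37 to 0.74, and no difference among the models was called (adjusted p = 0.76).

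The mitophagy receptor Bnip3 had the largest estimate of the 7 genes of the group of receptors and Pink1 in every model but LLC. From 165 and 169 CPM in Matrigel controls it reached 678 and 752 CPM in KPC (2.10 ± 0.25, adjusted p = 0.00017) and 355 and 504 CPM in KPCML1 (1.36 ± 0.25). It rose from 167 and 254 to 872 and 883 CPM in KPP (2.06 ± 0.25) and from 137 and 157 to 314 and 506 CPM in C26 (1.48 ± 0.25). LLC libraries went from 191 and 171 to 296 and 304 CPM, which did not overlap but missed the threshold (0.73 ± 0.24, adjusted p = 0.063). Tumour libraries of every model thus stood above all controls of their own experiment, and the calls in KPC, C26 and KPP held without each single library, while that in KPCML1 did not (adjusted p up to 0.074). Bnip3l (NIX), its paralogue, rose in KPC (62.9 and 72.2 to 152 and 189 CPM, 1.33 ± 0.22) and KPP (68.4 and 93.2 to 254 and 188 CPM, 1.45 ± 0.22). It stood at 67.05 and 71.9 CPM in LLC controls and 82.5 and 76.4 CPM with tumour (0.19 ± 0.22). KPCML1 libraries measured 94.97 and 103 CPM (0.55 ± 0.22). C26 went from 55.7 and 69.8 to 80.2 and 112 CPM (0.61 ± 0.22), and none of LLC, KPCML1 and C26 was called. Bnip3l is also known for clearing mitochondria from maturing red cells, and markers of red cells moved in these groups. The summed red-cell markers were 358 and 399 CPM in Matrigel controls, 2970 and 6834 CPM in KPCML1, and 2099 and 2306 CPM in KPC. KPP tumour replicate 1 and 2 had 3206 and 462 CPM. The KPP controls had 424 and 890 CPM of these markers, a range that holds KPP tumour replicate 2. In LLC the markers went from 382 and 295 CPM in controls to 865 and 2603 CPM with tumour. In C26 they went from 315 and 294 CPM to 288 and 147 CPM. All 7 testable markers were called higher in KPCML1 and KPC and 6 in LLC, and 0 in C26 and KPP (0 and 3 at an unadjusted p under 0.05, 0 and 1 by DESeq2). Their part in the Bnip3l values was not tested.

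The other mitophagy genes split by model. Pink1, the kinase that marks damaged mitochondria and the gene with the highest control level of this group per length (median 446 TPM), rose in KPC (919 and 941 to 1691 and 1479 CPM, 0.77 ± 0.19) and KPP (938 and 1366 to 2272 and 2376 CPM, 1.01 ± 0.19). The KPP call held without each single library, and the KPC call was lost without either Matrigel control (adjusted p up to 0.064). In C26 its tumour libraries lay below both controls (961 and 979 CPM in controls against 881 and 781 CPM with tumour) without passing the test (-0.22 ± 0.19, adjusted p = 0.44). Optn (optineurin), a receptor for ubiquitin-tagged mitochondria, also rose in KPC and KPP (0.80 ± 0.24 and 0.99 ± 0.24; adjusted p up to 0.15 and 0.076 with a library left out), while its LLC tumour libraries (85.9 and 82.7 CPM) lay below the controls (109.8 and 123 CPM; -0.47 ± 0.24, not called). Fundc1, a receptor of the outer mitochondrial membrane linked to hypoxia, was lower in LLC (25.7 and 24.1 to 16.7 and 14.1 CPM, -0.69 ± 0.19) and KPP (19.95 and 25.1 to 15.7 and 14.7 CPM, -0.57 ± 0.19). Its estimates were negative in all 5 models and its tumour libraries lay below the controls in each. Neither call held without each single library (highest adjusted p 0.24 and 0.23). Mitochondrially encoded transcripts, given above, were lower in each tumour library than in the controls of its experiment, and their relation to these genes was not tested.

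**Figure D3:**
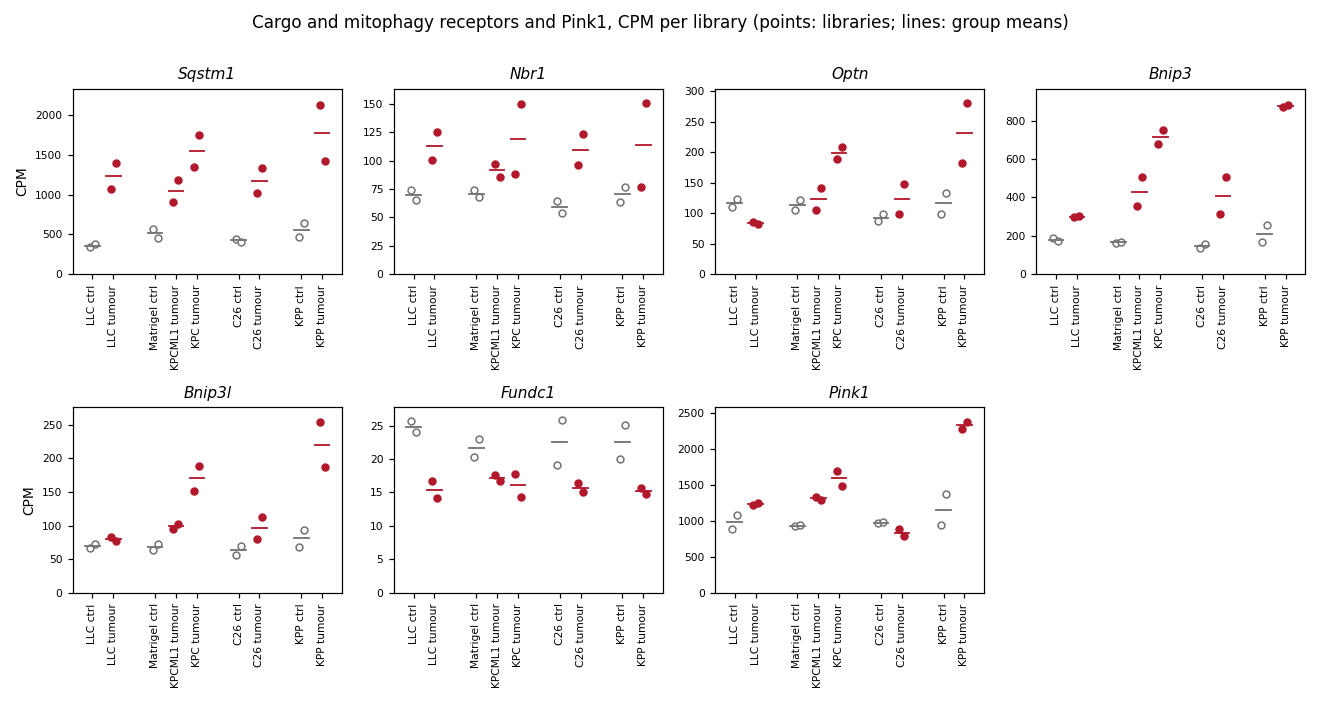
CPM in each library (points, open for controls and filled for tumour groups, lines for means of 2 libraries) of the receptors and Pink1. All tumour libraries of Sqstm1 (901 CPM and above) exceed all controls (643 CPM and below), Bnip3 is highest in KPC and KPP, and Fundc1 is lower with tumour in each model.

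Tfeb and Tfe3 are the factors known to switch on lysosomal genes, and of their own transcripts Tfeb passed the test in 1 model and Tfe3 in none. Tfeb was called in KPC, where the replicates differed (59.98 and 56.1 to 126 and 74.1 CPM, 0.79 ± 0.27, adjusted p = 0.041), and the call was lost without either Matrigel control or KPC tumour replicate 1 (adjusted p up to 0.32). KPCML1 gave a larger estimate that missed the threshold (97.8 and 122 CPM, 0.92 ± 0.27, adjusted p = 0.051), and C26 tumour muscle lay below its controls (73.3 and 58.7 CPM in controls against 55.3 and 53.3 CPM with tumour, -0.28 ± 0.27). Tfe3 was called in no model, with estimates from -0.34 to 0.60. Activity of these factors is set mainly by phosphorylation and nuclear entry, which transcript levels do not measure.

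The lysosomal membrane genes Lamp1 and Lamp2 were both called in C26 and KPP. Lamp2, a membrane glycoprotein needed for fusion and for chaperone-mediated uptake, measured 61.4 and 67.03 CPM in C26 controls and 135 and 132 CPM with tumour (1.05 ± 0.13, adjusted p = 0.00024). KPP went from 62.3 and 69.9 to 132 and 133 CPM (1.01 ± 0.13) and the Matrigel and KPC groups from 64.9 and 61.8 to 111 and 103 CPM (0.76 ± 0.13). KPCML1 lay between (90.9 and 81.6 CPM, 0.44 ± 0.13, adjusted p = 0.052), and LLC was close to its controls (61.9 and 63.4 CPM in controls against 65.98 and 68.2 CPM with tumour, 0.10 ± 0.13). The replicates of Lamp2 were tight, and the 3 calls held without each single library. Lamp1, its abundant relative, was called in C26 (372 and 379.5 to 549.6 and 741 CPM, 0.78 ± 0.18) and KPP (379.8 and 480.1 to 798 and 820.0 CPM, 0.91 ± 0.19). Its tumour libraries exceeded the controls in the other models as well, by 0.16 to 0.41 on the log2 scale, without passing the test. The C26 call of Lamp1 was lost without either control or tumour replicate 2 (adjusted p up to 0.099).

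Of the lysosomal proteases, Ctsl had the largest estimate of all 40 genes in C26 and KPP, while the largest was that of Sqstm1 in LLC and of Bnip3 in KPC and KPCML1. Cathepsin L transcripts went from 64.4 and 70.7 to 249 and 556 CPM in C26 (2.58 ± 0.35, adjusted p = 0.00037) and from 93.03 and 129 to 481 and 689.9 CPM in KPP (2.40 ± 0.35). Against 93.7 and 84.8 CPM in Matrigel controls, KPC muscle had 289 and 448 CPM (2.04 ± 0.34) and KPCML1 muscle 179 and 246 CPM (1.25 ± 0.33, adjusted p = 0.036). LLC went from 84.6 and 85.4 to 208 and 267 CPM (1.48 ± 0.34). All controls were at or below 129 CPM and all tumour libraries at or above 179 CPM, with wide spread between the tumour replicates of C26. In LLC and KPCML1 the call did not hold without each single library (highest adjusted p 0.10 and 0.25).

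Ctsd, the aspartic protease cathepsin D and the most abundant of these proteases per length in control muscle (median 283 TPM, against 92.2 for Ctsb and 47.5 for Ctsl), rose in 4 models. Control against tumour libraries measured 531 and 636 against 1752 and 1250.1 CPM in KPP (1.36 ± 0.23), 556 and 473 against 1022 and 1257 CPM in C26 (1.15 ± 0.23), 652 and 629 against 1244 and 1026 CPM for Matrigel and KPC (0.83 ± 0.23) and 589 and 541 against 911 and 971 CPM in LLC (0.74 ± 0.23, adjusted p = 0.046). KPCML1 libraries were apart, with 634 and 978 CPM, 1 of them inside the range of the controls. The Ctsd call held without each single library in KPP, was lost in C26 without C26 control replicate 2 (adjusted p = 0.056), and did not hold in KPC and LLC (up to 0.11 and 0.24). Ctsz (cathepsin Z, a carboxypeptidase) rose in C26 and KPP (0.79 ± 0.24 and 1.13 ± 0.24), and without C26 tumour replicate 2 the adjusted p in C26 was 0.31. For Ctsb (cathepsin B), a retained-intron transcript, Ctsb-202, was assigned 46.8 to 56.9% of the gene's TPM in controls, so its order against Ctsl in coding transcripts is uncertain. Ctsb was not called in edgeR in any model. Its tumour libraries lay below the controls in LLC (254 and 219.7 CPM in controls against 163 and 174 CPM with tumour, -0.49 ± 0.18, adjusted p = 0.095) and above them in KPP (217 and 273 CPM in controls against 337 and 341 CPM with tumour, 0.47 ± 0.18). Of the 5 cathepsins 0 were called lower in LLC in edgeR, but 1 was at an unadjusted p under 0.05 and 1 by DESeq2. In KPP 3 were called higher in edgeR, 4 at an unadjusted p under 0.05 and 4 by DESeq2. Ctss (cathepsin S, a protease known from macrophages and other antigen-presenting cells) was scarce, at 1.06 to 13.7 CPM, and was not called. Its estimate in KPCML1 was 1.34, the largest of the 5 cathepsins in that model, and its estimates were positive in every model but LLC. Cathepsins are abundant in macrophages. Of the 15 macrophage markers 6 were called higher in KPCML1, 3 higher and 2 lower in KPC, and 2 higher and 1 lower in KPP. Of all genes 4.15% were called higher in KPCML1, 15.3% higher and 13.7% lower in KPC, and 17.4% higher and 19.3% lower in KPP. The marker counts in KPC and KPP were near or below these shares. In LLC and C26 the marker count was 0 in both directions in edgeR and in DESeq2 (0 at an unadjusted p under 0.05 in LLC, 2 higher and 1 lower in C26). The median log2 fold change of the markers was 0.05 in LLC and 0.39 in C26. The part of macrophages in the cathepsin values was not tested.

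**Figure D4:**
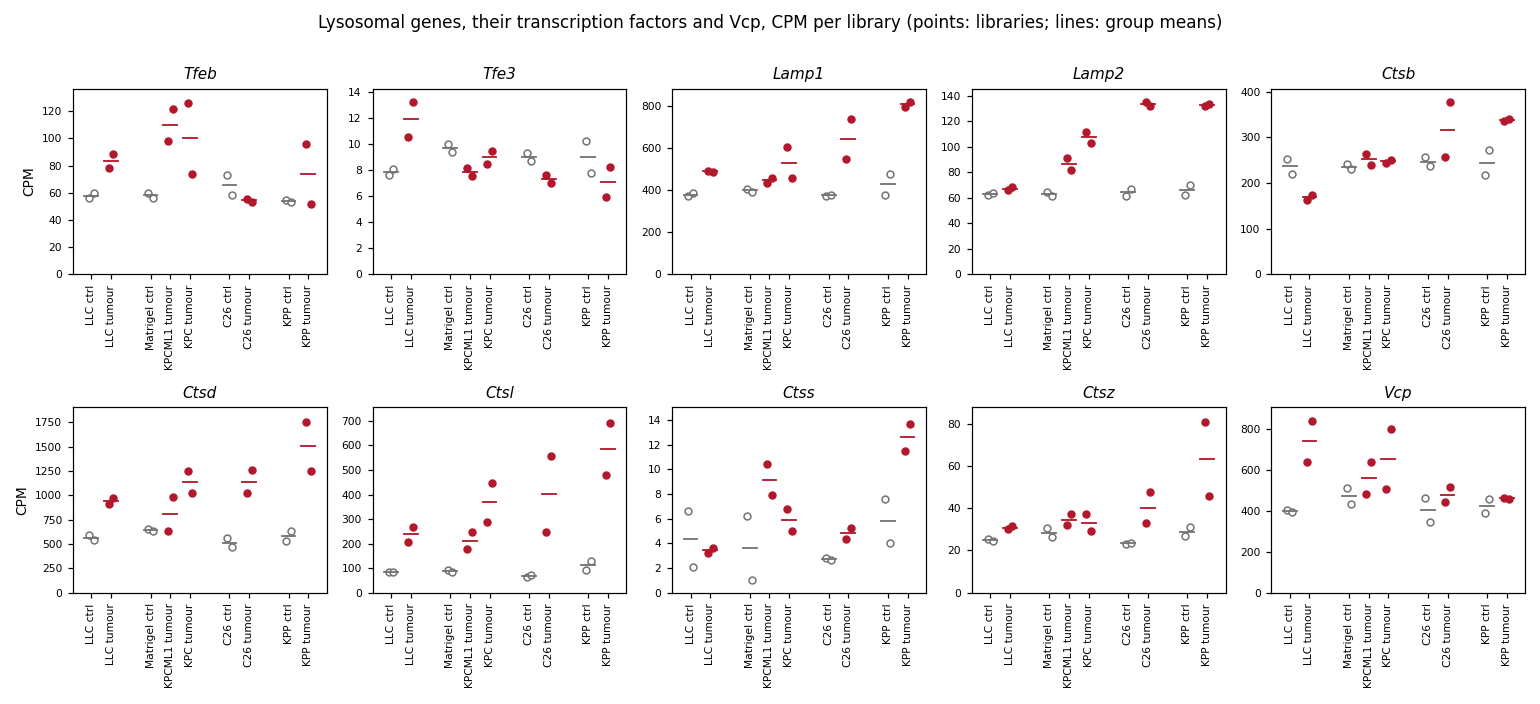
CPM in each library (points, open for controls and filled for tumour groups, lines for means of 2 libraries) of Tfeb, Tfe3, the lysosomal membrane genes, the cathepsins and Vcp. Ctsl separates tumour libraries (179 CPM and above) from controls (129 CPM and below) in all models, and Lamp2 steps up from LLC through KPCML1 and KPC to C26 and KPP.

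Promoters of the 40 genes, whether or not they rose, were read for the motifs of factors linked to this pathway. The windows, from RefSeq on build GRCm38.p6, run from 250 bases before to 50 bases after the annotated start, and 33 of the 40 genes had one. The motif TCACGTGA, the centre of the element bound by Tfeb and its relatives, was found in 2 of 33 windows (6.06%, Atg3 and Ctsd), against 1.12% of 27025 gene windows. Its core CACGTG, which the longer motif contains, was found in 8 of 33 (24.2%: Atg14, Atg3, Atg5, Atg7, Bnip3, Ctsd, Ctsl and Lamp1), against 8.09%. GTAAACA, a FoxO-type motif, was found in 0 of 33, against 4.05%. Each was searched on both strands and with exact letters, and a match is a description of the sequence only. The core occurred both in genes that rose (Ctsd, Ctsl, Bnip3, Lamp1 and Atg7) and in genes that passed no test (Atg3 and Atg5), and Atg14, called in KPP, held it as well. The lines below show the bases around a match upstream of the start of 5 genes that rose and of Atg3, 5′ to 3′ on the gene's strand, with 1 match in capitals. Ctsd is at chr7:142387870-142387975 on the minus strand with its match at position -98 from the start (another core lies at -245, outside the bases shown), Ctsl at chr13:64370701-64370770 on the minus strand (-236), and Lamp1 at chr8:13159050-13159155 on the plus strand (-61), where only the first of 4 cores is in capitals. Bnip3 is at chr7:138909559-138909664 on the minus strand (-108), Atg7 at chr6:114670914-114671019 on the plus strand (-132), and Atg3 at chr16:45158708-45158813 on the plus strand (-71), where another core at -94 is left in lower case. The RefSeq start used for Atg7 lies well inside the gene, which spans 114643097 to 114860614 in GENCODE M21. The bases shown for Ctsd and Ctsl, and the match of Atg14, also lie inside those genes as GENCODE M21 annotates them.
Ctsd: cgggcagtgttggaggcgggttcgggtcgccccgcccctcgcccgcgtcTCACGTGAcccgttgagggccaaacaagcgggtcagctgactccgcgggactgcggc
Ctsl: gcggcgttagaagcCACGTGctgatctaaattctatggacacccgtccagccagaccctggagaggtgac
Lamp1: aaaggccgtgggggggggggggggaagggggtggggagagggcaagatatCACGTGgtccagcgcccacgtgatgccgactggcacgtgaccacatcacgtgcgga
Bnip3: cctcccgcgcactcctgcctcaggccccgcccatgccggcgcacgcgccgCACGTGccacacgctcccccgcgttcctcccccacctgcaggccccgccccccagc
Atg7: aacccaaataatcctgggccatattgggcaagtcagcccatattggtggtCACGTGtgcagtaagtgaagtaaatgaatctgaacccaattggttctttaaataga
Atg3: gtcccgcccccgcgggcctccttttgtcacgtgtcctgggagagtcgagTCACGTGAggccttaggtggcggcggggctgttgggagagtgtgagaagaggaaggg

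Vcp, the segregase that extracts ubiquitin-tagged proteins for the proteasome and is needed for autophagosome maturation, rose in LLC, from 404 and 396 to 639.7 and 842 CPM (0.89 ± 0.24, adjusted p = 0.024). In the other models the estimates were 0.12 to 0.46, and tumour and control libraries overlapped in KPCML1, KPC and C26. The LLC call was lost without either LLC control or tumour replicate 2 (adjusted p up to 0.23), and a difference among the models was not called (adjusted p = 0.35).

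The 5 comparisons were also averaged in 1 contrast. Of the 40 genes 27 were called higher and 4 lower (Ulk2, Atg4a, Atg12 and Fundc1), where 25.2% of all genes were called higher and 25.7% lower, and the median over the 40 was 0.50. The largest mean increases were those of Ctsl (1.95 ± 0.18, adjusted p = 1.3e-06), Bnip3 (1.54 ± 0.13), Sqstm1 (1.51 ± 0.13), Gabarapl1 (1.49 ± 0.21) and Map1lc3b (1.44 ± 0.09, adjusted p = 6.7e-08). All 7 genes of the group of receptors and Pink1 were called, 6 higher and Fundc1 lower, and all 5 of the LC3 and GABARAP family were called higher. Of the 7 conjugation genes 1 was called higher and 2 lower. Of the 31 calls 28 held without each of the 18 libraries, the exceptions being Atg9a, Optn and Vcp.

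The size of the tumour effect differed among the 5 models for 6 of the 40 genes in a joint test of the differences, where 8.32% of all genes were called. They were Lamp2 (adjusted p = 0.021), Bnip3l (0.032), Optn (0.043), Map1lc3b (0.046), Bnip3 (0.046) and Pink1 (0.047), so 4 of the 6 are receptors or Pink1. For Lamp2, Bnip3l, Optn and Bnip3 the smallest effect was that of LLC and the largest that of KPC, C26 or KPP. Map1lc3b fell into a lower pair (LLC and KPCML1) and a higher trio, and Pink1 was lowest in C26. None of these joint calls held without every single library, and Lamp2 kept its call in 13 of 18 cases. The count of 6 became 0 without any 1 of the 4 LLC libraries. It became 1 without Matrigel control replicate 1 or 2, KPCML1 tumour replicate 1, KPC tumour replicate 2, C26 control replicate 1 or 2, or KPP control replicate 1, 3 without KPCML1 tumour replicate 2, and 10 without KPC tumour replicate 1. For the remaining 34 genes a difference among models was not detected at this size of experiment, and a call in 1 model and not in another does not show that the models differ.

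KPC and KPCML1 muscle, both from orthotopic implants, were also compared directly, a contrast in which the line and the number of cells implanted change together. KPC was higher in 3 of the 40 genes and lower in 0 (0 also at an unadjusted p under 0.05 and by DESeq2), where 2.94% and 3.05% of all genes were called. Map1lc3b measured 481 and 586 CPM in KPC and 303 and 355 CPM in KPCML1 (log2 difference 0.70 ± 0.17, adjusted p = 0.028). Bnip3l measured 152 and 189 against 94.97 and 103 CPM (0.78 ± 0.22), and Wipi1 76.3 and 139.9 against 58.2 and 59.4 CPM (0.88 ± 0.24). Of the 40 estimates 34 were above 0, with a median of 0.28. The 3 calls were each lost without either KPCML1 library or without KPC tumour replicate 2, with adjusted p up to 0.51 for Wipi1, and the count was 0 in each of these cases and 6 without KPC tumour replicate 1. All 3 calls were also lost with length-scaled counts, in the fit of this experiment alone and with the replicate block.

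A second list of 96 genes of the same pathway, which covers its further core genes, receptors, proton pump subunits, hydrolases and lysosomal membrane proteins, was read in the same fit. Called higher and lower were 18 and 4 in LLC, 4 and 6 in KPCML1, 22 and 11 in KPC, 18 and 3 in C26, and 36 and 9 in KPP, and the median log2 fold change was 0.06 to 0.34. Shares of all genes called higher and lower were 7.39% and 6.24% in LLC, 4.15% and 4.38% in KPCML1, 15.3% and 13.7% in KPC. They were 11.5% and 9.80% in C26 and 17.4% and 19.3% in KPP. In KPCML1 the counts of the 96 genes were close to these shares. In each model the median of the 96 genes lay below that of the 40 genes. In the mean of the models 6 of 10 further receptors were called higher, 9 of 16 proton pump genes higher and 1 lower, and 7 of 25 hydrolases higher and 5 lower. Of 26 other core autophagy genes 10 were higher and 6 lower (median 0.10), and of 18 other lysosomal membrane and scaffold genes 7 were higher and 5 lower (median 0.01). Of all genes 25.2% were called higher and 25.7% lower in the mean, and the counts of the hydrolases were close to these shares. In all 5 models Zfyve1, Gaa and Atp6v0d1 were called higher and Trp53inp2 lower. Gaa, the lysosomal glucosidase that degrades glycogen, rose from 126 and 143 to 649 and 475 CPM in KPP (2.06 ± 0.28) and by 1.27 to 1.98 in the other models. Zfyve1 (DFCP1), a PI3P-binding protein of the membrane where autophagosomes form, rose by 1.05 (LLC) to 1.89 (KPC). Atp6v0d1, a membrane subunit of the proton pump that acidifies lysosomes, rose by 0.51 to 0.82. Trp53inp2 (DOR), a nuclear protein that moves to autophagosomes and binds LC3, fell from 408 and 351 to 72.7 and 70.2 CPM in C26 (-2.41 ± 0.21) and from 419 and 323 to 68.9 and 83.3 CPM in KPP (-2.29 ± 0.20). Its paralogue Trp53inp1 went the other way, from 9.47 and 6.76 to 58.8 and 82.2 CPM in KPC (3.12 ± 0.41), and was called in all models but LLC. The other genes of smallest p in the mean of the models were Atp6v1h, a proton pump subunit (1.61 ± 0.18), Tax1bp1, a receptor (0.87 ± 0.10), and Npc1, which exports cholesterol from lysosomes (1.56 ± 0.19), all higher.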

How the data were processed

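Poly(A) RNA of 18 tibialis anterior libraries was sequenced in read pairs with a strand-specific kit, per the labels' protocols. Reads were demultiplexed with bcl2fastq 2.20, checked with FastQC and quantified against mm10 with Salmon, and the tools listed also hold DESeq2, per the submitters' processing notes. For Salmon, the version, strand setting and transcript release are not stated. The authors deposited 1 table per library with estimated counts (expected counts) and TPM per transcript. TPM, which the authors' Salmon run scaled within each library by effective length, was used for levels between genes in controls and for transcript shares only, because the median of all genes shifted by up to 0.47 (log2) between groups on that scale. The deposited effective length of each transcript was used for length-scaled counts. The authors' deposited comparison tables were not used here.

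Transcripts were matched to GENCODE M21 (139881 of 140825, and the 944 others held 0.416 to 0.693% of fragments), and a gene's count is the rounded sum over its transcripts. Genes passing edgeR's filterByExpr (16089 of 29433) were scaled by TMM and fitted with edgeR 4.0.16 (R 4.3.3, limma 3.58.1), quasi-likelihood test, in 1 model of 9 groups with Benjamini-Hochberg adjustment over all 16089 genes and a threshold of 0.05. The common dispersion was 0.0539. Contrasts were each tumour group against its control, their mean, their differences jointly, and KPC against KPCML1. The test was tried first on simulated counts for the LLC contrast. It called 44 of 100 genes changed 2-fold, 100 of 100 changed 4-fold and 8 of 15889 unchanged genes. A 2-fold change was thus often missed there. Each simulated gene took its spread from the common trend and had none of its own, and no scarce gene was changed, so the rates can differ in the real counts. Replicates correlated at 0.959 to 0.983 (across genes, log scale). Alternatives were RLE scaling, DESeq2 1.42.0, no filter, length-scaled counts, a replicate block, a fit to each experiment alone and leaving out each library. A crossed replicate block in KPP was added after seeing the data. The text names all 40 genes and, of 96 further pathway genes, the 8 of smallest p in the mean and those called in all 5 models. The members and lists were chosen with earlier results of these data known. Tables and figures were made with Python 3.11.15, pandas 2.3.3, numpy 2.4.6 and matplotlib 3.10.9.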

Additional observations from a re-analysis of the deposited data

Results flagged for a closer look

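The tumour effect differed among the 5 models for 6 of the 40 genes in edgeR's joint quasi-likelihood test (Benjamini-Hochberg over all 16089 genes). Lamp2 had an adjusted p of 0.021, with log2 fold changes from 0.10 in LLC to 1.05 in C26. Bnip3l had an adjusted p of 0.032, from 0.19 in LLC to 1.45 in KPP. Optn had an adjusted p of 0.043, from -0.47 in LLC to 0.99 in KPP. Map1lc3b had an adjusted p of 0.046, from 1.03 in KPCML1 to 1.73 in KPC. Bnip3 had an adjusted p of 0.046, from 0.73 in LLC to 2.10 in KPC. Pink1 had an adjusted p of 0.047, from -0.22 in C26 to 1.01 in KPP. When single libraries were dropped, 18 in all, the call remained in 13 cases for Lamp2, 7 for Bnip3l, 7 for Optn, 5 for Bnip3, 4 for Pink1 and 3 for Map1lc3b, and none of the 6 was called once any 1 of the 4 LLC libraries was dropped.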

How the results depend on the processing

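No estimate of a called gene changed sign under any alternative run. With each library left out in turn, the genes called higher numbered 2 to 9 in LLC, 0 to 5 in KPCML1, 7 to 21 in KPC, 6 to 15 in C26, 16 to 21 in KPP, 25 to 29 in the mean and 0 to 6 between KPC and KPCML1. Those called lower numbered 0 in LLC, 0 to 1 in KPCML1, 0 in KPC, 0 to 1 in C26, 1 to 3 in KPP, 4 in the mean and 0 between KPC and KPCML1, and the joint test called 0 to 10. DESeq2 called 2 lower in LLC, 11 higher in KPCML1, 2 lower in C26, 7 higher in KPC against KPCML1, and 16 in the joint test. Without a filter on low counts there were 0 lower in LLC, 1 lower in C26, 1 lower in KPP, 9 higher in KPC against KPCML1, and 13 in the joint test. In that fit the prior degrees of freedom were infinite (5.05 with the filter), so every gene was tested with the spread of the common trend and not its own. Length-scaled counts gave 0 lower in LLC, 1 lower in KPP and 1 higher in KPC against KPCML1 (none of the 3 called otherwise), and RLE scaling 1 lower in C26. Fits to each experiment alone gave 3 lower in LLC, 0 lower in KPCML1, 1 lower in C26, 1 lower in KPP and 0 in KPC against KPCML1. The cause of these shifts was not tested.

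Replicate numbers did not pair the samples: deviations of same-numbered libraries correlated at 0.01 in LLC, 0.09 in KPCML1, -0.05 in KPC, -0.08 in C26 and -0.17 in KPP. With the replicate block 4 genes were lower in LLC, 3 higher and 0 lower in KPCML1, 12 higher and 1 lower in KPP, 0 higher in KPC against KPCML1, and 1 in the joint test. A crossed replicate block in KPP gave 21 higher and 1 lower. Calls that held under every alternative other than leaving out a library numbered 11 of 15 in LLC, 3 of 7 in KPCML1, 14 of 20 in KPC, 9 of 14 in C26, 13 of 24 in KPP and 31 of 31 in the mean. RLE scaling moved the median of all genes by at most 0.047 (log2). Each of the 40 genes had at least 31 counts in every library, and 2 libraries a group set the precision.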
